A study of Homo sapiens with 8 samples.

Results

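The HOX gene clusters were described here as regions of open chromatin in U2OS, a long-established line of human osteosarcoma cells. The members were the 38 HOX genes of a given list that lie in the HOXA, HOXB, HOXC and HOXD clusters, taken with 5 kb on each side of each cluster's outermost listed genes. Those 4 spans covered 560.6 kb and held 81 of the 129052 merged peaks of chromosomes 1 to 22 and X. A merged peak is a stretch in which the peak lists of the 4 conditions overlap or touch.

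The assay was ATAC-seq, which reads open DNA by where a transposase can insert its tags. The 4 conditions were siOrc6 with H2O2, siGl3 with H2O2, siOrc6 untreated and siGl3 untreated, with 2 libraries each, numbered by batch in the labels. Orc6 belongs to the origin recognition complex, which marks sites where DNA replication starts, siGl3 is the control siRNA, and knockdown lasted 72 h. All cells, controls included, went through a double thymidine block and a 3 h release, which places them in early S phase, and the treated ones then received 5 mM H2O2 for 30 min. H2O2 is an oxidant that damages DNA. Each condition had 1 peak list over its libraries, and 4 further lists gave the authors' changed regions, that is those higher and those lower in siOrc6 against siGl3, without and with H2O2. No value per library, read count or fold was in these lists, so the depth is unknown, the spread between replicates cannot be given, and nothing below was tested across libraries. Depletion of Orc6 cannot be checked in lists of peaks.

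HOX genes encode homeodomain transcription factors that give cells their position along the body axis and the limbs. Their order along each chromosome follows the order in which they are used from head to tail, and genes with the same number in different clusters are paralogs. In cells that do not use them, the clusters are held silent by Polycomb proteins, and trithorax proteins keep active genes on. HOX proteins bind DNA together with the cofactors PBX and MEIS. In bone and limb, members with higher numbers pattern the long bones, hands and feet.

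For 20 of the 38 members, RefSeq promoter sequence was at hand (assembly GRCh38.p14, 250 bases before to 50 bases after the annotated start). The 4 shown first had the strongest start peak of their cluster among members with promoter sequence (HOXA9, HOXC4 and HOXD1) or lay inside a changed region (HOXA11). They are HOXA9, a regulator of blood stem cells, HOXC4, whose start is also that of HOXC5, HOXD1, and HOXA11, a gene of the forearm and the uterus. The last pair, HOXB1, which patterns the hindbrain, and HOXD4, had no peak within 1 kb of the start in any list and was chosen after its values were seen. CpG dinucleotides are in capitals, and each window is written 5′ to 3′ on the gene's strand. HOXA9 is at chr7:27165488-27165787 (minus strand), HOXC4 at chr12:54016638-54016937 (plus strand), HOXD1 at chr2:176188418-176188717 (plus strand), HOXA11 at chr7:27185183-27185482 (minus strand), HOXB1 at chr17:48530962-48531261 (minus strand) and HOXD4 at chr2:176151300-176151599 (plus strand).
HOXA9: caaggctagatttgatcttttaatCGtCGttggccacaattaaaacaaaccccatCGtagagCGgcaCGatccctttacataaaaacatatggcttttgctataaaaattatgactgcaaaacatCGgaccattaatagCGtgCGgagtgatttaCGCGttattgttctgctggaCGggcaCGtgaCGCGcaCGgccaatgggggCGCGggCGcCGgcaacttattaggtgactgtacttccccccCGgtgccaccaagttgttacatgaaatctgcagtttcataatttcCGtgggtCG
HOXC4: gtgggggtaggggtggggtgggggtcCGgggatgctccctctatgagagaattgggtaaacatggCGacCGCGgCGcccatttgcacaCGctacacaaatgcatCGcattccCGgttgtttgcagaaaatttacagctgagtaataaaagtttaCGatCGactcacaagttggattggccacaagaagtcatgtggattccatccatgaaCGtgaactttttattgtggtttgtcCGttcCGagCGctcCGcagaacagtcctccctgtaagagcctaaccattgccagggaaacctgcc
HOXD1: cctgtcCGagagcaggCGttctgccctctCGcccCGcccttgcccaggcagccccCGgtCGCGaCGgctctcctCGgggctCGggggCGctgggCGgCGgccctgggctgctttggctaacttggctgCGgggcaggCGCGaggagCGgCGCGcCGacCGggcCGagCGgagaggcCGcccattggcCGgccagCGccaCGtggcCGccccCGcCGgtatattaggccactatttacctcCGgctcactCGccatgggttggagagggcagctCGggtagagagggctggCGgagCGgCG
HOXA11: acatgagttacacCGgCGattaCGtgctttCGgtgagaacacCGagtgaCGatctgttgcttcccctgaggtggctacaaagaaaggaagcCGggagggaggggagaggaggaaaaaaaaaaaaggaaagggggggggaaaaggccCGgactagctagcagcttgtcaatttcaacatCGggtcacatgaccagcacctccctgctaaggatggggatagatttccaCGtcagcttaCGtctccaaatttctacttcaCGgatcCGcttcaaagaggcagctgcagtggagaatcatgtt
HOXB1: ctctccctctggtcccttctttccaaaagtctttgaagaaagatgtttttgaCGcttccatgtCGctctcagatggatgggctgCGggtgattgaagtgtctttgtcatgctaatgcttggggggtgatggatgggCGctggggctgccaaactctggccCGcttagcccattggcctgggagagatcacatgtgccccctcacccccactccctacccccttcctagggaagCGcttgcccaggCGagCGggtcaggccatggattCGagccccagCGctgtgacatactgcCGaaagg
HOXD4: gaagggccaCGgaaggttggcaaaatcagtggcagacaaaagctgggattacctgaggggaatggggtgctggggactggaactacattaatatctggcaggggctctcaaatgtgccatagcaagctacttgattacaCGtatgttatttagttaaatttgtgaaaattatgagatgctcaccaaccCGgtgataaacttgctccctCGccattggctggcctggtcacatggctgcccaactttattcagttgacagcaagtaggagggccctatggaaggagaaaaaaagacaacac

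These windows held 22 CpGs at HOXA9, 15 at HOXC4, 36 at HOXD1, 13 at HOXA11, 11 at HOXB1 and 4 at HOXD4. A window with fewer CpGs than the median promoter window could thus lie under a peak in all 4 lists, as at HOXA11. Over the 26 distinct start windows of these members, the 12 starts with a peak within 1 kb in all 4 lists had a median of 26 CpGs (13 to 44). The 13 starts with a peak in no list had a median of 15 (0 to 27), and the median of 22035 promoter windows of protein-coding genes was 21. The ranges of the 2 HOX groups overlapped, and 7 of the windows are alternative starts of HOXA3, so this is a description only.

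Of the motifs searched on both strands, the CCAAT box (CCAAT) was in 17 of the 26 HOX windows, or 65.4%, against 34.7% of all promoter windows. The TATA box (TATAAA) was in 5, or 19.2%, against 9.49%. A motif bound by PBX with HOX proteins (TGATNNAT) was in the windows of HOXA2, HOXB1 and HOXD11, or 11.5% against 5.21%. None of these 3 starts had a peak within 1 kb in any list. The core motif of CTCF, a protein that anchors chromatin loops, was in 1 window of HOXA10, or 3.85% against 2.53%.

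The spans also hold microRNA genes that are known for acting on HOX messages. MIR196A1 in HOXB and MIR196A2 in HOXC give the same mature form, and MIR196B lies in HOXA, so their sequences show that 3 of the clusters carry the same seed (bases 2 to 8, in capitals). The mature form of MIR10A in HOXB is given beside them, and MIR10B lies in HOXD.
hsa-miR-196a-5p: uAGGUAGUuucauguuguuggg
hsa-miR-196b-5p: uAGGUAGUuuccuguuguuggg
hsa-miR-10a-5p: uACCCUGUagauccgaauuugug

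The miR-196 forms shared the seed and differed by the substitution A12C (base of miR-196a-5p, position counted from 1 at the 5′ end, base of miR-196b-5p). None of the hairpins overlapped a merged peak. The nearest one was 969 bp away at MIR615, 1808 bp at MIR196B, 1965 bp at MIR196A2, 2196 bp at MIR10A, 5144 bp at MIR196A1 and 9020 bp at MIR10B. MIR196A1 lay in a stretch of 10.5 kb and MIR10B in a stretch of 46.4 kb with no peak in any list.

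The HOX spans were densely open. They held 14.4 merged peaks per 100 kb, against 5.46 over protein-coding genes with 5 kb on each side and 4.26 over the chromosomes. Merged peaks covered 15.6% of the spans, against 4.09% over genes and 2.89% over the chromosomes, measured up to the last annotated gene or peak. The median width of the merged HOX peaks was 958 bp, against 502 bp for all merged peaks, and 8 of the 81 (9.88%) were at least 2 kb wide, against 3.28%. A peak was present in all 4 lists for 63 of the 81 (77.8%), where the share over all merged peaks was 62.1%.

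Covered length differed between the clusters more than between the conditions. HOXA (chr7:27095354-27205091) held 23 merged peaks, 21.0 per 100 kb, over 26.8% of its length. HOXC (chr12:53933831-54061030) held 22, 17.3 per 100 kb, over 19.3%. HOXB (chr17:48523526-48733750) held 22 in a span of 210.2 kb, 10.5 per 100 kb, over 10.8%, and HOXD (chr2:176082487-176195907) held 14, 12.3 per 100 kb, over 9.46%. HOXD was thus the least covered of the 4, and it had no merged peak of 2 kb or more, its widest being 1735 bp.

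**Figure D1:**
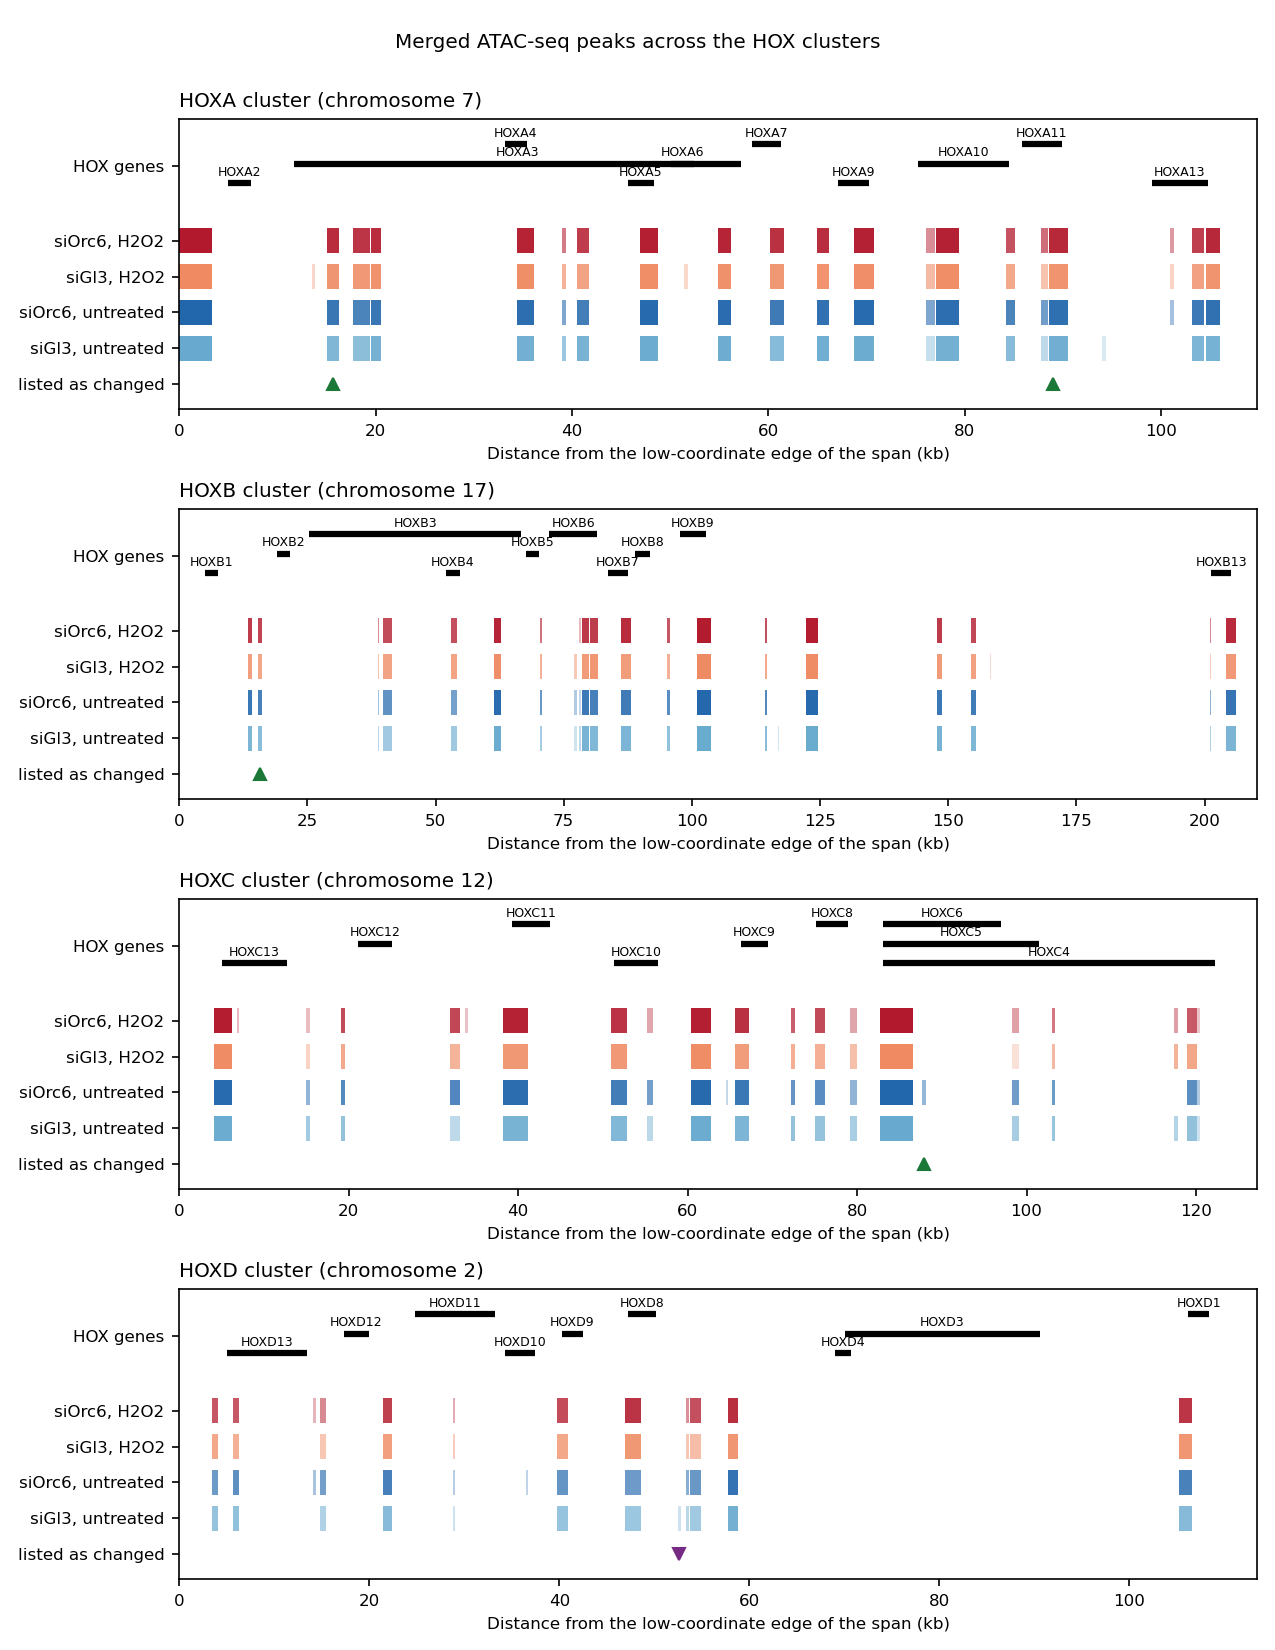
Maps of the 4 HOX spans, with distance from the low-coordinate edge of the span in kb on the x axis, HOX genes as black bars and a row of merged peaks for each of the 4 peak lists (darker means a higher percentile of peak signal). Triangles mark the deposited regions higher (up) or lower (down) in siOrc6 without H2O2. Peaks lie close together in HOXA, and the empty stretch of 46.4 kb in HOXD and that of 42.6 kb before HOXB13 stand out.

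In each list the spans were covered to a similar extent. Over all 4 clusters the lists held 75 peaks in siOrc6 with H2O2, 77 in siGl3 with H2O2, 80 in siOrc6 untreated and 81 in siGl3 untreated. They covered 13.6% of the spans in siOrc6 with H2O2 against 12.5% in siGl3 with H2O2, and 13.8% in siOrc6 untreated against 12.5% in siGl3 untreated. Over the chromosomes the lists covered 2.07%, 2.07%, 2.33% and 2.32% in the same order. The siOrc6 lists thus had fewer HOX peaks over more bases than the siGl3 lists of the same treatment. This held in each cluster for the covered share. HOXA was covered to 24.5% in siOrc6 and 22.4% in siGl3 with H2O2, and HOXD to 7.97% in siOrc6 and 6.50% in siGl3 with H2O2.

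**Figure D2:**
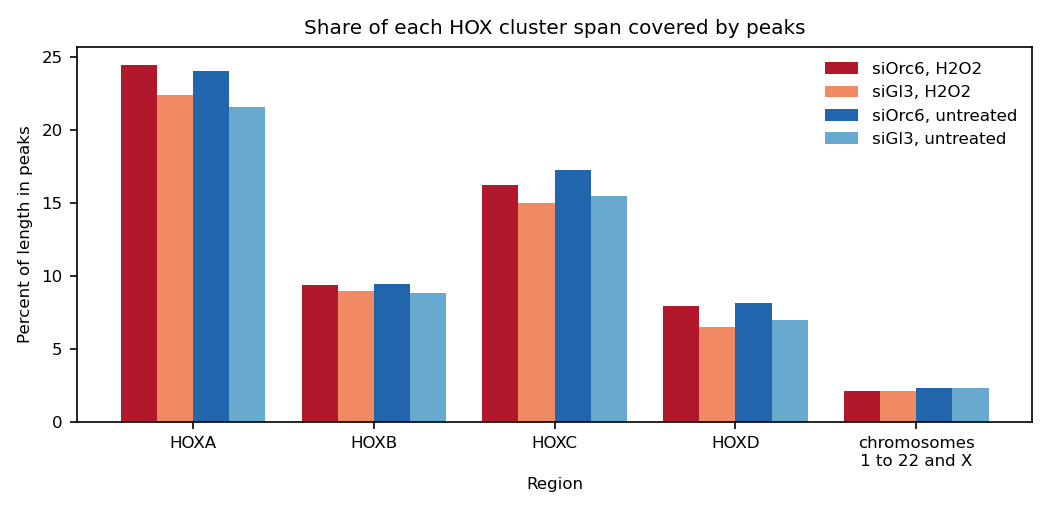
Percent of the length of each HOX span, and of chromosomes 1 to 22 and X, that lay in peaks (y axis), with 1 bar for each of the 4 peak lists. HOXA bars lie between 21.6% and 24.5%, HOXD bars between 6.50% and 8.16%, and in every cluster the siOrc6 bar is above the siGl3 bar of the same treatment.

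Closed stretches, that is 10 kb or more with no peak in any list, numbered 12 and took up 231.2 kb, or 41.2% of the spans. Over the chromosomes such stretches took up 86.5%. That share counts every gap of this length between merged peaks, up to 18399 kb long. Sequence in which no peak can be called was not taken out, and no share over genes is given. Closed stretches made up 21.95% of HOXA, 59.0% of HOXB, 28.8% of HOXC and 40.9% of HOXD. HOXB was therefore the cluster with the largest closed share, much of it in the length between HOXB9 and HOXB13.

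The closed stretches of HOXA lay at its anterior end. One of 10.2 kb (chr7:27098678-27108902) held the whole of HOXA2, which patterns the hindbrain and the branchial arches. Another of 13.9 kb (chr7:27115910-27129775) lay within the span of HOXA3 and held HOXA-AS2, an antisense RNA gene. From the start of HOXA4 to HOXA13 there was no closed stretch.

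In HOXB the closed stretches also took in the anterior genes. HOXB1 lay whole in a stretch of 13.4 kb that ran to the edge of the span (chr17:48523526-48536923). HOXB2 and HOXB-AS1 lay in one of 22.6 kb (chr17:48539654-48562231), and part of HOXB3 in a further one of 11.5 kb. HOXB-AS4 and MIR196A1 lay in a stretch of 10.5 kb beyond HOXB9. Stretches of 23.3 kb and 42.6 kb (chr17:48681933-48724577) filled most of the way to HOXB13, a prostate regulator whose start was open.

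HOXC had 3 closed stretches. One of 12.5 kb (chr12:53953382-53965831) held the whole of HOXC12, and those of 10.2 kb and 14.0 kb lay in the long shared transcription unit of HOXC4 and its neighbours. In HOXD a single stretch of 46.4 kb (chr2:176141284-176187717) held the whole of HOXD4 and HOXD3, MIR10B and part of HAGLR, a long noncoding RNA gene. HOXD1 lay just beyond its end and had a start peak.

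A peak lay within 1 kb of the annotated start in all 4 lists for 25 of the 38 members (65.8%), beside a background of 66.7% of protein-coding genes. The share was near that of all genes, but it joins 2 ways of placing the start. Of the 20 members with promoter sequence 11 had such a peak (55% against 68.3% of genes with it), and of the 18 others, placed by either annotated end, 14 did (77.8% against 60.5% of genes placed so). Start peaks of all lists were found for 8 of 10 members in HOXA, 6 of 10 in HOXB, 8 of 9 in HOXC and 3 of 9 in HOXD. With either end of the annotated span for every member the count was again 25, with HOXD13 in place of HOXA3 and 4 of 9 in HOXD. With the end that is the start on the strand of the other cluster members, 24 of the 38 had a start peak in all lists. At HOXB8 the peak lies at the gene's other end, in the merged peak at HOXB7. By paralog number and the first rule, all members of groups 5, 7, 8 and 9 had one, and none did in groups 2 and 12. Group 8 counts HOXB8 by the peak at its other end. HOXC4, HOXC5 and HOXC6 share 1 annotated start, which for HOXC6 is an end of its span, and count as 3 members here. Any further starts inside this shared unit were not looked at.

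Peak signal, the authors' value per peak, was used as a percentile, the share of the peaks of the same list at or below it. These percentiles are given in the order siOrc6 with H2O2, siGl3 with H2O2, siOrc6 untreated and siGl3 untreated wherever 4 follow each other. In HOXA, the strongest start peak was that of HOXA5, a gene of the lung and the neck vertebrae in the mouse, at percentiles of 96.3, 95.9, 96.3 and 95.9. The start peak of HOXA9 was at 94.8, 95.3, 95.1 and 95.3, and that of HOXA3, which patterns the throat organs in the mouse, at 92.9, 92.4, 94.5 and 94.2. These 3 peaks stayed above the 90th percentile in each list. HOXA3 has 7 annotated starts, and its values are those of the strongest start peak (chr7:27150167-27151528). A peak at another of its starts (chr7:27113070-27114755) was at 83.1, 82.4, 75.0 and 67.6. The remaining HOXA3 starts had no peak within 1 kb in any list.

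HOXA4 was at 93.9, 94.9, 92.5 and 90.5, and HOXA10, a gene of the uterus, at 94.8, 95.8, 93.1 and 89.3. HOXA11 was at 90.9, 88.9, 91.7 and 91.5. HOXA13, a gene of the hands, feet and genital tract, was at 90.6, 88.9, 90.5 and 86.5. HOXA7 ranked lowest of the HOXA members with a start peak in all lists, at 85.3, 84.4, 82.0 and 72.1. HOXA6 had a start peak in the siGl3 list with H2O2 alone, at 10.9, and HOXA2 had none.

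In HOXB, HOXB9 had the strongest start peak, at 98.1, 98.4, 98.1 and 97.6. HOXB13 was at 89.7, 82.4, 87.5 and 82.5, HOXB7 at 88.5, 77.8, 81.5 and 81.1, and HOXB6 at 78.4, 86.2, 77.2 and 76.3. HOXB5 was near the middle of the lists, at 47.1, 55.0, 56.8 and 45.0. The peak near HOXB8 was at 88.5, 54.6, 67.7 and 58.7. In siOrc6 with H2O2 this was the HOXB7 peak itself, 1947 bp wide. In the other lists the merged peak was split, and the part near HOXB8 was 625, 653 and 625 bp wide. The first value is thus not of the same peak as the others.

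HOXB4, known for its use in expanding blood stem cells, had a start peak in the H2O2 lists alone, at 67.8 in siOrc6 and 70.3 in siGl3. The same merged peak (chr17:48576633-48577642) was in all 4 lists, 1001 and 1005 bp wide with H2O2 against 463 and 476 bp untreated (siOrc6 and siGl3 each time). Its narrower untreated form lay more than 1 kb from either end of the gene and ranked lower, at 49.2 in siOrc6 and 50.3 in siGl3. HOXB1, HOXB2 and HOXB3 had no start peak in any list.

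In HOXC the start shared by HOXC4, HOXC5 and HOXC6 lay under the widest and strongest HOX peak (chr12:54016522-54020451, 3930 bp), at 99.5, 99.6, 99.7 and 99.7. HOXC13, a gene of hair and nails, was at 97.6, 97.7, 95.7 and 95.8. HOXC10 was at 84.5, 82.9, 79.4 and 76.6, and HOXC9 at 85.4, 79.0, 85.1 and 80.9. HOXC8, which patterns the chest vertebrae in the mouse, was lower, at 71.8, 57.4, 66.0 and 59.6. HOXC12 had no start peak in any list.

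HOXC11 overlaps HOTAIR, a long noncoding RNA gene known for the contact of its product with Polycomb proteins, and a merged peak of 2955 bp lay over both (chr12:53972049-53975003). Its percentiles were 94.1 in siOrc6 and 84.3 in siGl3 with H2O2, and 94.2 in siOrc6 and 84.5 in siGl3 untreated. It was a single peak in each siOrc6 list and was split into 3 peaks in each siGl3 list, over 2943 bp in siOrc6 and 2303 bp in siGl3 with H2O2, and 2796 bp in siOrc6 and 2417 bp in siGl3 untreated. Ranked by the authors' −log10 p, the percentiles were 69.6 in siOrc6 and 60.2 in siGl3 with H2O2, and 69.0 in siOrc6 and 65.8 in siGl3 untreated. This peak was in none of the deposited lists of changed regions.

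In HOXD, peaks within 1 kb of the start were found at HOXD1, HOXD8 and HOXD9 of the 9 members. HOXD1 was at 83.2, 85.8, 76.2 and 72.5, and HOXD9 at 70.7, 66.2, 59.3 and 58.2. HOXD8 was at 83.8 and 85.2 in siOrc6 and siGl3 with H2O2, and at 54.3 and 52.7 in siOrc6 and siGl3 untreated, where it was split into 2 peaks. HOXD10, HOXD11, HOXD12 and HOXD13, genes of the limbs of which HOXD13 is mutated in a human digit malformation, had none in any list, and neither had HOXD3 and HOXD4. For HOXD12 the nearest peak present in all lists was 1891 bp from the start. For HOXD13 it was 3983 bp from the start, and it lay inside the gene's annotated span (chr2:176088134-176088738, 605 bp), at 62.9, 56.2, 63.4 and 61.7. The promoter-table start lies within that span, and the same peak is within 1 kb of the span's low-coordinate end, so HOXD13 would count by the rule of either end.

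**Figure D3:**
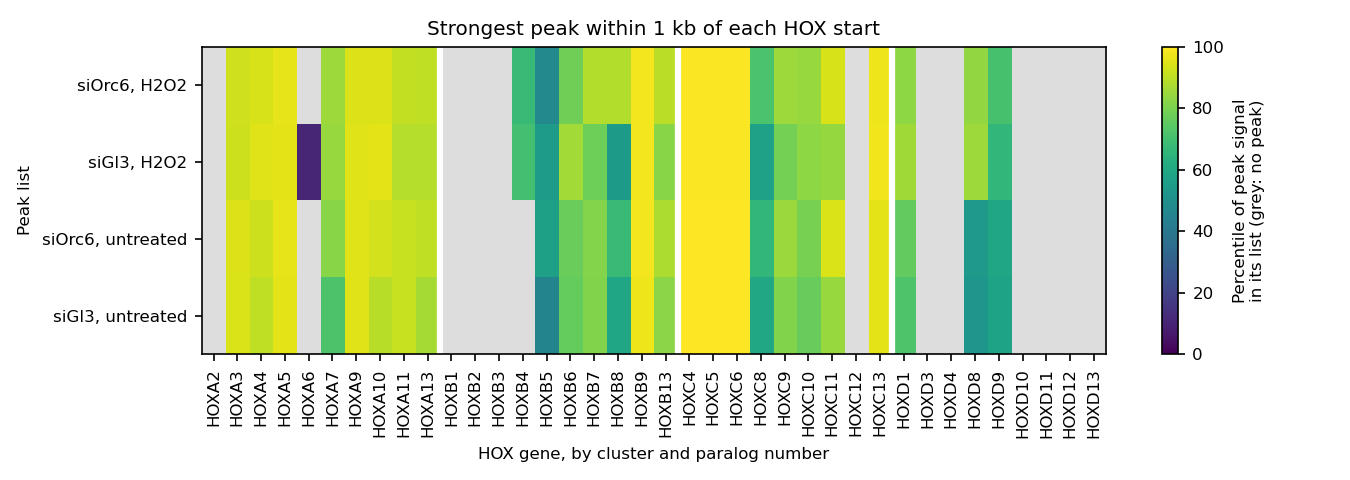
Percentile of peak signal of the strongest peak within 1 kb of each HOX start (colour, 0 to 100) in each of the 4 peak lists (rows), for the 38 members by cluster and paralog number (columns). Grey marks no peak. HOXC4 to HOXC6 lie at 99.5 or above in all rows, and HOXD10 to HOXD13 are grey throughout.

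Not all strong HOX peaks lay at a member's start. The 3 highest in each list were the shared HOXC4 peak, the peak at HOTAIRM1 and the HOXB9 peak. HOTAIRM1, a noncoding RNA gene at the anterior edge of HOXA that is known from myeloid cells, lay under a peak of 3594 bp (chr7:27095084-27098677) at 99.5, 99.6, 99.4 and 99.4. A peak of 2282 bp between HOXB9 and HOXB13 (chr17:48645757-48648038) overlapped no listed gene and was at 97.6, 97.6, 97.5 and 97.5. A peak of 2321 bp at HOXC-AS2 (chr12:53994283-53996603) was at 95.9, 96.2, 96.6 and 95.8. The remaining peaks of 2 kb or more lay at HOXA10 (2329 bp), HOXB9 (2613 bp), HOXC13 (2088 bp) and HOXC11.

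Of the 63 merged peaks in all lists, the 28 within 1 kb of a member's start had a median width of 1612 bp and a median percentile, averaged over the lists, of 81.6. The other 35 had 916 bp and 64.1. Over all merged HOX peaks the median percentile was 72.9 in siOrc6 and 71.9 in siGl3 with H2O2, and 73.1 in siOrc6 and 68.9 in siGl3 untreated. Over all merged peaks it lay between 50.7 and 50.9 in each list. At or above the 90th percentile were 15, 13, 16 and 13 HOX peaks in the 4 lists, or between 18.3% and 22.2% of those present. That share was 10.3% over all merged peaks in each list.

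Among peaks further from any start, a peak inside the span of HOXB3 (chr17:48584907-48586197) was at 92.6, 94.0, 94.6 and 96.0, although HOXB3 had no start peak. A peak between HOXA7 and HOXA9 (chr7:27160272-27161517) was at 87.6, 89.9, 90.3 and 91.0. In HOXD, a peak that overlapped no listed gene and bordered the closed stretch of 46.4 kb (chr2:176140231-176141283) was at 86.9, 85.8, 88.9 and 89.3, above every HOXD start peak in 3 of the 4 lists. These 3 were chosen after their values were seen, and in each the percentiles with H2O2 were below the untreated ones under the same siRNA.

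The 18 merged HOX peaks missing from at least 1 list were small. Their median width was 340.5 bp (162 to 770 bp) and their median percentile 10.9 (0.301 to 51.4), against 1176 bp and 77.1 for the 63 in all lists. Present in a single list were 11, or 13.6%, against 15.8% over all merged peaks. Of these, 2 were in siOrc6 with H2O2, 3 in siGl3 with H2O2, 3 in siOrc6 untreated and 3 in siGl3 untreated.

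Lists of different length do not give comparable percentiles, so the 63 peaks in all lists were also ranked among the 80119 merged peaks that all lists share. On this common scale siOrc6 ranked above siGl3 at 41 of the 63 HOX peaks (65.1%) with H2O2 and at 50 (79.4%) untreated. The shares over all 80119 were 51.7% with H2O2 and 52.1% untreated. Over the 14054 shared peaks at a start of a protein-coding gene they were 60.8% with H2O2 and 70.4% untreated, so peaks at gene starts in general leaned the same way. The median HOX difference, siOrc6 minus siGl3, was 2.01 percentile points with H2O2 and 4.03 untreated.

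By cluster, siOrc6 ranked above siGl3 with H2O2 at 11 of 19 shared peaks in HOXA, 12 of 18 in HOXB, 10 of 15 in HOXC and 8 of 11 in HOXD. Untreated, the counts were 15 of 19, 14 of 18, 11 of 15 and 10 of 11. The siOrc6 form was the wider one at 41 of the 63 (65.1%) with H2O2, where the share was 56.5% over all shared peaks and 72.4% at gene starts. It was wider at 47 (74.6%) untreated, against 55.5% and 73.6%. Ranked by −log10 p instead of signal, siOrc6 was above siGl3 at 49 of the 63 (77.8%) with H2O2 and at 50 (79.4%) untreated. By that ranking the shares over all shared peaks were 52.5% with H2O2 and 53.7% untreated. At gene starts they were 61.6% and 75.0%, so the untreated HOX share was near that of gene starts. With no value per library, whether these leanings exceed the spread between libraries was not tested.

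With H2O2 the rank was above the untreated one at 44 of the 63 (69.8%) in siOrc6 and at 41 (65.1%) in siGl3. Over all shared peaks these shares were 49.3% and 48.4%, and at gene starts 70.5% and 72.9%. The HOX shares were thus close to or below those of gene starts. Of the 4 conditions, siOrc6 with H2O2 ranked highest at 29 of the 63 peaks, siGl3 with H2O2 at 17, siOrc6 untreated at 12 and siGl3 untreated at 5. Over all shared peaks the shares ranked highest were 23.03%, 23.91%, 26.75% and 26.32% in the same order. The untreated siGl3 list ranked lowest at 35 of the HOX peaks. Shares ranked highest at gene starts were not computed, nor was any background for the lowest rank. Whether the order at HOX peaks differs from that at gene starts was thus not tested.

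**Figure D4:**
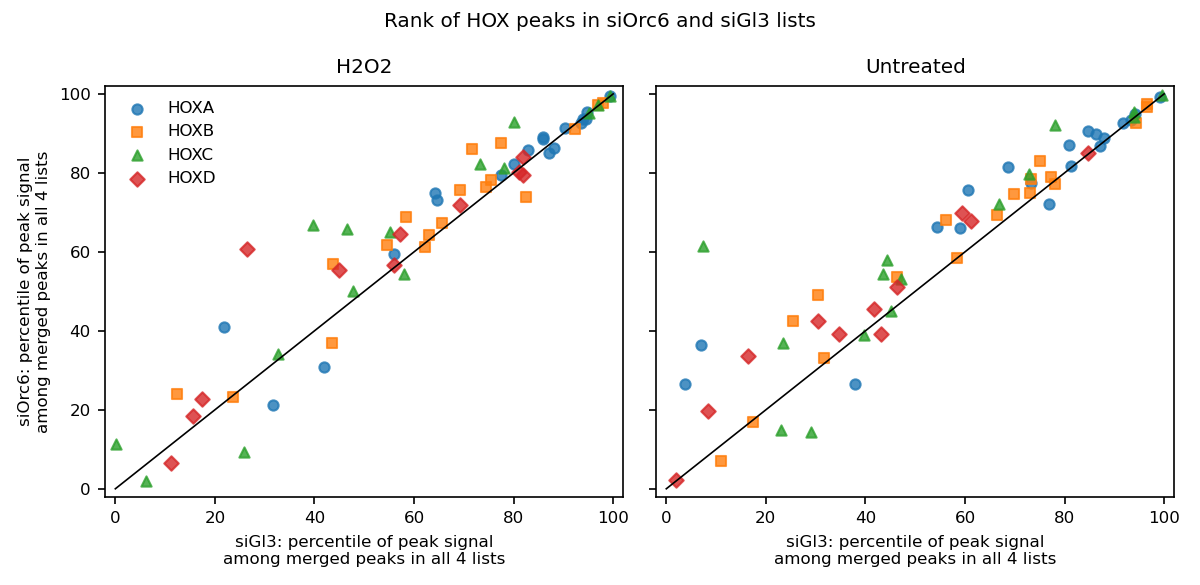
Percentile of peak signal of the 63 HOX peaks found in all lists, ranked among the 80119 merged peaks that all lists share, for siOrc6 (y axis) against siGl3 (x axis), with H2O2 (left) and untreated (right). Points are merged peaks, by cluster, and the line marks equal rank. Above the line lie 41 points with H2O2 and 50 untreated, and the strongest peaks sit close to it.

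Over the 4 conditions the common rank of a HOX peak ranged over a median of 12.3 percentile points, against 12.9 for all shared peaks. It was under 5 points at 15 of the 63 (23.8%, against 18.0% of all shared peaks) and 20 points or more at 15 (23.8%, against 28.3%). The smallest range was that of the shared HOXC4 peak, at 0.196 points. That peak lies near the top of each list, where a rank has little room to move, so its small range does not show a steady signal. The same limit bears on the comparison with all shared peaks, since HOX peaks rank higher. The largest range, 59.6 points, was that of a peak inside HOTAIR (chr12:53965832-53966975). On the common scale this peak was at 66.8 in siOrc6 and 39.7 in siGl3 with H2O2, and at 61.5 in siOrc6 and 7.28 in siGl3 untreated. It covered 1107 bp in siOrc6 and 983 bp in siGl3 with H2O2, and 1104 bp in siOrc6 and 702 bp in siGl3 untreated. It was split into 2 peaks in each siGl3 list, of which the stronger was ranked, and its rank was lowest in the untreated siGl3 list. By −log10 p the common ranks were 43.6 in siOrc6 and 43.4 in siGl3 with H2O2, and 38.4 in siOrc6 and 20.2 in siGl3 untreated, a range of 23.4 points, so the siRNA difference with H2O2 rests on the peak signal. By that ranking the HOXC10 start peak had the largest range, 45.7 points. The HOTAIR peak was not in the deposited lists of changed regions.

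The next in range was the HOXD8 start peak, whose common ranks were 80.3 in siOrc6 and 81.1 in siGl3 with H2O2, and 39.3 in siOrc6 and 34.7 in siGl3 untreated. Here the lists parted by treatment and not by siRNA. A peak of 872 bp within HOXC4 and HOXC5 (chr12:54032110-54032981) went the other way, at 11.2 in siOrc6 and 0.223 in siGl3 with H2O2, and at 37.0 in siOrc6 and 23.5 in siGl3 untreated. A peak at HOXD-AS2, a noncoding RNA gene beside HOXD8, was at 60.6 in siOrc6 and 26.4 in siGl3 with H2O2, and at 42.5 in siOrc6 and 30.4 in siGl3 untreated (chr2:176136269-176137448). By −log10 p this last peak was at 22.7 in siOrc6 and 9.43 in siGl3 with H2O2, and at 19.9 in siOrc6 and 16.2 in siGl3 untreated.

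Among the regions that the authors called changed, few lay in the HOX spans. With H2O2, 0 of the 81 merged HOX peaks lay at a region higher in siOrc6 and 0 of 81 at a lower one, which allows a share of up to 3.70% by the limit of 3 counts and up to 4.45% by the exact 95% interval. The background over all merged peaks was 0.945% for higher and 1.19% for lower regions. Without H2O2, 5 of 81 (6.17%, exact 95% interval 2.03 to 13.8%) lay at regions higher in siOrc6, beside a background of 6.85%. At regions lower in siOrc6 lay 1 of 81 (1.23%, 0.0313 to 6.69%), beside 4.74%. The higher share without H2O2 was near the background, and the other backgrounds lay within the intervals or under both limits. These intervals cover counting error only, and neighbouring peaks are not independent. Among shared peaks, 4 of the 63 HOX peaks lay at a higher region without H2O2, beside 6.58%.

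The regions higher in siOrc6 without H2O2 were 4. The widest, 2216 bp (chr7:27183245-27185460), covered the start of HOXA11 and that of its antisense gene HOXA11-AS, and spanned 2 merged peaks. At the main peak the percentiles were 90.9 in siOrc6 and 88.9 in siGl3 with H2O2, and 91.7 in siOrc6 and 91.5 in siGl3 untreated. At the smaller one, inside HOXA11 (chr7:27183076-27183780), they were 50.6 in siOrc6 and 35.3 in siGl3 with H2O2, and 52.0 in siOrc6 and 23.5 in siGl3 untreated. Together the peaks covered 2100 bp in siOrc6 and 1893 bp in siGl3 untreated. The main peak thus ranked alike in the untreated lists, and the smaller one stood apart. The HOXA11 window printed above lies across the edge of this region.

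A region of 1267 bp lay inside HOXA3 (chr7:27110381-27111647), 2195 bp from the nearest HOXA3 start. Its peak was at 88.4 in siOrc6 and 86.7 in siGl3 with H2O2, and at 86.4 in siOrc6 and 77.9 in siGl3 untreated. It covered 1267 bp in siOrc6 and 934 bp in siGl3 untreated. A region of 754 bp lay 3002 bp from the low-coordinate end of HOXB2 (chr17:48538900-48539653), with a peak at 74.3 in siOrc6 and 67.2 in siGl3 with H2O2, and at 76.3 in siOrc6 and 68.9 in siGl3 untreated. Both were open in all 4 lists and ranked lower in siGl3 than in siOrc6 in each treatment.

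The last higher region, 457 bp in the shared HOXC4, HOXC5 and HOXC6 unit (chr12:54021503-54021959), had a peak in the untreated siOrc6 list alone, at 29.3. The single region lower in siOrc6, 284 bp in HOXD-AS2 (chr2:176134963-176135246), had a peak in the untreated siGl3 list alone, at 9.18. These are regions of weak signal. Of the 38 members, HOXA11 alone had its annotated start inside a changed region.

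Long noncoding and microRNA genes inside the spans were open at the start in all lists for 11 of 22, and in no list for 9. HOTTIP, which is known to help keep the posterior HOXA genes on, shares its start peak with HOXA13. HAGLR shares that of HOXD1, HOXC13-AS that of HOXC13, and HOXC-AS3 that of HOXC10. HOXC-AS1 was at 85.4, 79.0, 85.1 and 80.9 together with HOXC9. HOXA-AS2, HOXB-AS1, HOXB-AS3 and HOXB-AS4 had no start peak in any list.

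Of the HOX cofactors, 6 of 9 had a start peak in all lists, near the background of 66.7%. MEIS1, which binds DNA with HOX proteins, was at 99.2, 99.2, 99.6 and 99.1, and PKNOX1, a relative of MEIS1, at 98.8, 99.1, 96.1 and 96.3. MEIS2 had none in any list, and PBX3 had one in the H2O2 lists alone, at 11.9 in siOrc6 and 8.44 in siGl3. MEIS1, PBX4 and PKNOX1 each had a region higher in siOrc6 without H2O2 in the gene or within 5 kb. PBX4 also had a lower one, and PBX3 had a region higher in siOrc6 with H2O2. The share of all genes with such a region is not given here, so these calls are a description only.

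Of the Polycomb and trithorax genes and other regulators of HOX chromatin, 15 of 16 had a start peak in all lists. KMT2A, the trithorax methyltransferase known for its fusions in leukaemia, was at 93.1, 90.8, 92.1 and 87.2, and EZH2, the Polycomb methyltransferase, at 67.6, 69.9, 54.9 and 47.7. CBX2, a Polycomb reader protein, was at 89.2 in siOrc6 and 90.1 in siGl3 with H2O2, and at 74.8 in siOrc6 and 45.5 in siGl3 untreated, and had a region higher in siOrc6 without H2O2. ASH1L, a trithorax gene, had a lower one. For these calls too, the share of all genes with such a region is not given. PBX2 and RING1 had no start peak, and they lie in a stretch of 4.54 Mb of chromosome 6 without any peak in any list, and they count as lacking a start peak in these shares. Of markers of the labelled cell type, 7 of 9 osteoblast lineage genes had a start peak in all lists, beside the background of 66.7%. COL1A1 was at 99.6, 99.7, 99.5 and 99.5, RUNX2 at 54.9, 43.3, 66.8 and 62.0, and COL1A2 at 27.1, 12.8, 17.6 and 34.0. ALPL and IBSP had none. Such a peak was also found at 2 of 4 epithelial and 1 of 4 blood genes. The epithelial gene KRT8 was at 96.9, 96.9, 99.5 and 99.8, and the blood gene CD3E at 75.2, 76.4, 79.8 and 82.8. These short lists thus do not tell the cell type.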

How the data were processed

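ATAC-seq peaks of 4 conditions of U2OS cells were used, 1 deposited list per condition whose name carries both replicate numbers. Per the submitters' processing notes, the authors' build was hg38 and their tools included Bowtie2, Genrich, edgeR, Picard, SAMtools, deepTools and bcl2fastq 2.20. The role of each, the treatment of duplicates and any shift of cut sites for the transposase are not given in the sources used here. Per peak, the deposited lists give a display score (column 5), the authors' signal (column 7) and their −log10 p (column 8). Column 7 ranked the peaks within a list, and −log10 p served as an alternative. The authors' lists of changed regions hold positions alone, without fold, p-value or stated threshold. Each start was moved by 1 bp to match the peaks.

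Peaks on chromosomes 1 to 22 and X were merged where they overlapped or touched. Of each merged peak, the strongest peak per list was ranked. Overlap meant at least 1 bp. Genes, promoters and microRNAs came from RefSeq tables of GRCh38.p14, which matches hg38. All 38 members were found, 20 of them with promoter sequence. The members, all changed regions, closed stretches and wide peaks were named, with the 3 strongest HOX peaks per list, noncoding genes, cofactors, regulators and markers from lists. Some items on these lists are not reported here. Members and lists were chosen with earlier results of these data known. Peaks singled out for their range across conditions were chosen after their values were seen. Merging, ranking and overlap were tested on simulated data. Intervals of shares are exact Clopper-Pearson intervals. The work used Python 3.11.15 with matplotlib 3.10.9, scipy 1.17.1, pandas 2.3.3 and numpy 2.4.6.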

Additional observations from a re-analysis of the deposited data

How the results depend on the processing

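Of the 45 alternatives tried over 13 results, 41 left the value near the one reported and none reversed it. The other 4 used only the upper part of each list by −log10 p, at or above its median. They gave 52 merged HOX peaks in place of 81, 41 in all lists in place of 63, 3 at regions higher in siOrc6 without H2O2 in place of 5, and 0 at lower ones in place of 1. Fewer peaks enter by the construction of this alternative. Other merging, flank and overlap settings gave between 71 and 82 merged peaks. Windows of 500 bp and 3 kb gave 24 and 30 members with a start peak in all lists, in place of 25. The start on the strand of the cluster gave 24 and either end of the span for every member 25. These, and the order of siOrc6 and siGl3 by −log10 p, were chosen after seeing the data. Ranked among shared peaks, the median HOX percentile was 73.9 in siOrc6 and 69.1 in siGl3 with H2O2, and 69.2 in siOrc6 and 60.6 in siGl3 untreated. Ranked by −log10 p it was 69.6 in siOrc6 and 64.7 in siGl3 with H2O2, and 68.4 in siOrc6 and 65.1 in siGl3 untreated, so the order of siGl3 with H2O2 and siGl3 untreated turned round. No paired analysis was possible because each condition has 1 list over its libraries, and no replicate could be left out for the same reason. Depth is unknown, so weak regions missing from a list cannot be called closed.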

Other observations

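The 100 kb on each side of the spans were looked at after seeing the data. Peaks covered 9.46% of the HOXD span, against 1.75% of the lower and 1.18% of the higher side, where 1 merged peak lay on each. They covered 26.8% of the HOXA span, against 3.85% and 6.31% of its sides with 9 merged peaks each. They covered 19.3% of the HOXC span, against 5.64% on the lower side with 8 and 3.13% on the higher side with 3. The HOXB span was covered to 10.8%, against 10.8% and 9.66% of its sides with 13 and 12. HOXA, HOXC and HOXD were thus more covered than their surroundings, and HOXB was not. Of these neighbouring peaks, 1 on the lower side of HOXC lay at a region higher in siOrc6 without H2O2 and 1 on its higher side at a lower region, and no other lay at a changed region in any of the 4 deposited lists.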
